A study of Mus musculus with 23 samples.

Results

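Expression of 8 genes of the beta-adrenergic and cAMP pathway was examined in the brown adipose tissue (BAT) of 23 mice. The genes were the receptors Adrb1 and Adrb3, the G protein gene Gnas, the protein kinase A (PKA) genes Prkaca and Prkar2b, and the phosphodiesterases Pde3b, Pde4b and Pde4d. They were found by symbol, and all 8 of them had a row among the 14651 genes measured. The rule used symbols and no measured value.

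Male C57BL/6 mice of 8 to 12 weeks were studied in 4 groups, namely control RT (n = 6), control 4°C (n = 5), BAT-Mcu-KO RT (n = 6) and BAT-Mcu-KO 4°C (n = 6). BAT-Mcu-KO mice were Mcu fl/fl and carried Ucp1-Cre, where the Ucp1 promoter limits the recombinase to cells that express this brown adipocyte gene. Control mice were Mcu fl/fl without Cre, so the loxP sites around exon 2 of Mcu, which encodes the pore of the mitochondrial calcium uniporter, were carried by every mouse. The mice at 4°C spent 6 h there, and by the study's methods cold exposure took place in single housing, without bedding and, unless stated otherwise, without food. The food of the sequenced mice at RT was not given in the sources used here, and cold, housing and lack of food cannot be told apart. Replicates are numbered mice of a group, no litter or batch was named for them, and p-values measure the spread between these samples.

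Sympathetic nerves release norepinephrine in BAT when a mouse is in the cold. Beta-adrenergic receptors on brown adipocytes pass the signal through the stimulatory G protein to adenylyl cyclases, which make cAMP. Binding of cAMP releases the catalytic subunits of PKA from its regulatory subunits, and the free kinase starts lipolysis and the transcription of thermogenic genes. Phosphodiesterases end the signal by breaking cAMP down.

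Values were normalized counts, that is, the reads of a gene scaled by each library's size factor, and libraries held 7129271 to 21006347 reads. Few reads mean a larger counting error, and PCR copies were not told apart. Groups were compared in limma, with values taken as log2(normalized count + 1), and genes with an adjusted p under 0.05 (Benjamini-Hochberg, all 14651 genes) were called. A log2 fold change on this scale understates the change of genes with few reads. Mcu itself was 81.4 to 136 in control RT, 70.8 to 132 in control 4°C, 15.2 to 42.4 in BAT-Mcu-KO RT and 24.0 to 39.9 in BAT-Mcu-KO 4°C, so every library matched the genotype of its label. Within a genotype Mcu overlapped between RT and 4°C, so it does not check the temperature. All 6 brown adipocyte markers looked at were present, and 0 of 4 T cell markers had a row. The 6 skeletal muscle markers summed to 26172 to 42697 in 5 libraries (control 4°C replicates 2 and 5, BAT-Mcu-KO RT replicates 3, 4 and 6) and to at most 9976 in the other libraries. For the 8 genes, calls or signs that change without the 5 muscle-rich libraries are given, along with other large moves. For the wider pathway list, only the number of calls by cold without them is given, and calls by genotype that appear.

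Cold moved 5 of the 8 genes, and it moved the same 5 in both genotypes. Prkaca and Prkar2b fell, while Pde3b, Pde4b and Pde4d rose. Adrb1, Adrb3 and Gnas were not called in either genotype. The share called, 62.5%, stands beside 46.0% of all genes called by cold in control mice and 43.3% in the BAT-Mcu-KO mice. Among the 9531 genes with a mean of at least 50, which leaves out Adrb1, 56.9% and 53.2% were called, and 5 of 7 members. By direction, 3 of 8 rose against 22.3% of all genes in control mice and 21.4% in the BAT-Mcu-KO mice, and 2 of 8 fell against 23.7% and 21.9%. The median log2 fold change of the 8 genes was 0.17 in control and 0.088 in the BAT-Mcu-KO mice, beside -0.022 and -0.023 over all genes. For each of these 5 genes the mice at 4°C and those at RT did not overlap within either genotype, which held for 25.2% of all genes in control and 24.2% in the BAT-Mcu-KO mice. The 2 cold comparisons share no mouse. Scaling by the 75th percentile instead shifted the median of all genes in control mice to -0.13, with 18% of genes called higher and 29.2% lower, and left the 5 calls and their directions as they were.

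**Figure D1:**
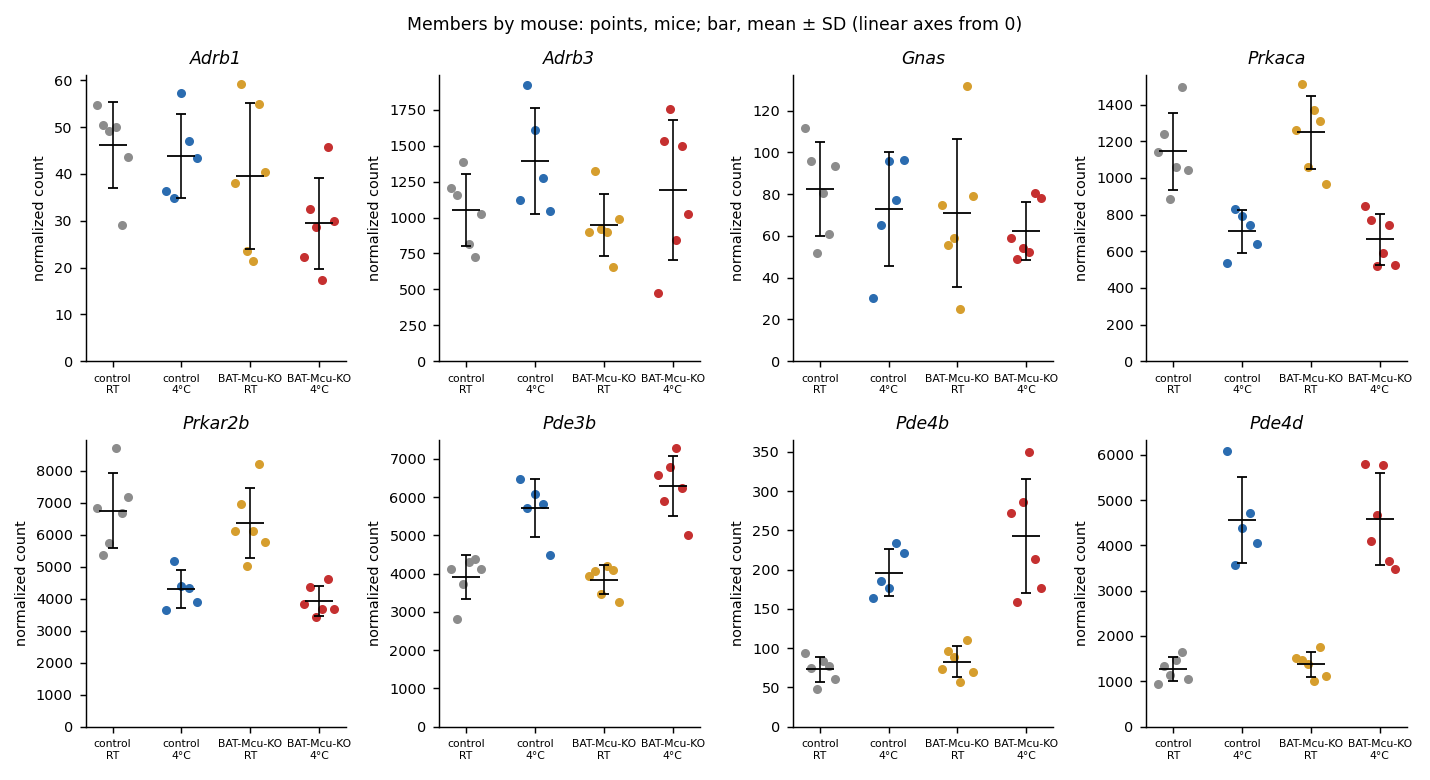
Normalized count (vertical axes, linear from 0) of the 8 genes in each mouse of the 4 groups, with the mean ± SD as a bar. Within each genotype, the points at 4°C lie below those at RT for Prkaca and Prkar2b and above them for Pde3b, Pde4b and Pde4d, while the points of Adrb1, Adrb3 and Gnas overlap.

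Adrb3 encodes the beta receptor typical of mature rodent adipocytes. Its gene lies at chr8:27225776-27250616, minus strand (GRCm38, GENCODE M21). In control RT mice the lowest, median and highest normalized counts were 728, 1091 and 1386, and the control 4°C mice, from replicate 1 to 5, had 1123, 1923, 1608, 1273 and 1042. BAT-Mcu-KO mice had 659, 908 and 1322 at RT and 475, 1262 and 1758 at 4°C. The control 4°C mice lay within and above the range of the RT mice, and the BAT-Mcu-KO 4°C mice reached past both ends of theirs. Cold gave a log2 fold change of 0.40 ± 0.25 (SE) in control and 0.23 ± 0.24 in the BAT-Mcu-KO mice (adjusted p = 0.199 and 0.47, limma), and the 95% interval of the fold reached from 0.923 to 1.89 and from 0.833 to 1.65. The BAT-Mcu-KO value rests in part on replicate 1 at 4°C, the lowest mouse, without which it was 0.47 (adjusted p = 0.0623), and it was 0.091 without replicate 3. In the M21 annotation an antisense gene, Gm45470, shares 839 exonic bases with Adrb3, or 24.9% of them, and reads of the 2 genes there cannot be told apart by strand.

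Adrb1, the beta receptor better known from the heart and from precursor cells of brown adipocytes, was present at a low level (chr19:56722199-56733113, plus strand). It had 29.0, 49.6 and 54.7 normalized counts in control RT mice, 36.4, 34.9, 57.2, 47.0 and 43.3 in the control 4°C mice, 21.5, 39.2 and 59.1 in BAT-Mcu-KO RT and 17.4, 29.4 and 45.7 in BAT-Mcu-KO 4°C mice. These values rest on 18 to 72 reads a mouse. The BAT-Mcu-KO 4°C group had the lowest mean, 29.4 ± 9.70 (SD), beside 39.6 ± 15.5 at RT, and these groups overlapped. By cold the log2 fold change was -0.070 ± 0.26 in control and -0.38 ± 0.25 in the BAT-Mcu-KO mice (adjusted p = 0.848 and 0.234). Without the 5 libraries rich in muscle transcripts, which leaves 3 mice in control 4°C and 3 in BAT-Mcu-KO RT, the second value was -0.80 and was called (adjusted p = 0.0301), and the first turned to 0.026 (adjusted p = 0.953).

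Adra1a, an alpha receptor that acts through calcium, fell with cold in both genotypes. It went from 1169.9 ± 144 to 810.3 ± 76.8 in control mice (n = 6 and 5, log2 fold change -0.53, adjusted p = 0.000342, limma) and from 1087 ± 169 to 885 ± 116 in the BAT-Mcu-KO mice (n = 6 and 6, log2 fold change -0.29, adjusted p = 0.0266, limma). Adra2b, whose product lowers cAMP, also fell in both (log2 fold change -1.20 and -1.21, adjusted p = 0.0373 and 0.0302), from at most 28 reads a mouse. Adra1d fell in the BAT-Mcu-KO mice (log2 fold change -1.29, adjusted p = 0.013), from few reads, at 9 to 44 a mouse at RT and 3 to 13 at 4°C. Its normalized counts overlapped there, at 8.45 to 38.0 and 2.74 to 11.4. In control mice it had a log2 fold change of -0.42 (adjusted p = 0.447), and the interaction was not called for it (adjusted p = 0.871).

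Levels of different genes were compared per kb of exon, taking all exons of a gene in M21 together, so that a gene with many alternative exons reads low. On this scale Adrb3 exceeded Adrb1 by 23.1-fold ± 3.97 in control RT and by 40.9-fold ± 14.2 in BAT-Mcu-KO 4°C mice, with a range over all mice of 12.0 to 61.2. The part of the overlap of Adrb3 with Gm45470 in this ratio was not tested.

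Gnas encodes the alpha subunit of the stimulatory G protein, along with other products of an imprinted locus at chr2:174284320-174346744, plus strand. It had 51.9, 86.9 and 112 in control RT mice, 30.3, 65.3, 95.8, 77.1 and 96.2 in control 4°C, 25.1, 67.1 and 132 in BAT-Mcu-KO RT and 49.1, 56.7 and 80.6 in BAT-Mcu-KO 4°C mice. All 4 groups overlapped, and the log2 fold change by cold was -0.23 ± 0.31 and -0.054 ± 0.30 (adjusted p = 0.573 and 0.902). Without the muscle-rich libraries the values were -0.38 and -0.42 (adjusted p = 0.369 and 0.349). In M21 the exons of Gm20721 on the opposite strand share 1469 bases with exons of Gnas, and those of the antisense Nespas 988. Of the 16 coding transcripts of Gnas, 3 have over 80% of their bases in the overlap with Gm20721, and the highest share was 85.4%. Counting paid no regard to strand, and reads that fall in exons of 2 genes are as a rule given to neither. The authors counted with an older annotation, which was not used here. The part of this overlap in the level of Gnas, and in its fold changes, was not tested. Its level is therefore not ranked against the other genes.

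Of the 10 other G protein genes of a wider pathway list in the table, 2 rose and 3 fell in both genotypes, beside 17.3% and 17.5% of all genes. In this class 3 passed the test in BAT-Mcu-KO and not in control mice, as did 1256 of all 14651 genes (smallest adjusted p of the interaction in this class 0.793, limma). No gene of the class changed by as much as 1 on the log2 scale in both genotypes. Those that rose were Gnai3, an inhibitory alpha subunit, with log2 fold changes of 0.46 in control and 0.61 in the BAT-Mcu-KO mice, and Ric8b, a chaperone of stimulatory alpha subunits, with 1.19 and 0.71. Those that fell were Gnao1 (-0.61 and -0.92), Gna11 (-0.53 and -0.45) and the beta subunit Gnb2 (-0.55 and -0.48).

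Prkaca, the main catalytic subunit of PKA, fell with cold (chr8:83972993-83996443, plus strand). It was 885, 1100.2 and 1498 in control RT mice (lowest, median and highest), and 538, 829, 794, 741 and 639.9 in the 5 control 4°C mice. BAT-Mcu-KO mice had 968, 1285 and 1514 at RT and 521, 668 and 848 at 4°C. The highest mouse at 4°C lay below the lowest mouse at RT in each genotype, with a gap of less than the SD of either group. Group means were 1.62-fold lower at 4°C in control and 1.87-fold lower in the BAT-Mcu-KO mice, with log2 fold changes of -0.69 ± 0.15 (adjusted p = 0.00046) and -0.91 ± 0.14 (adjusted p = 9.6e-06). Prkacb, the second catalytic gene, had log2 fold changes of 0.063 and -0.24 and was not called (adjusted p = 0.701 and 0.095). Of the summed level of the catalytic genes per kb, Prkaca made up 83.7% ± 4.35 in control RT and 75.6% ± 4.33 in control 4°C mice, and 82.5% ± 2.59 and 74.7% ± 4.57 in the BAT-Mcu-KO mice.

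Prkar2b, the RII-beta regulatory subunit that prevails in adipose tissue, fell by a like amount (chr12:31958476-32061296, minus strand). Values were 5369, 6752 and 8698 in control RT, 3649, 5178, 4408, 4344 and 3898 in control 4°C, 5004, 6117 and 8217 in BAT-Mcu-KO RT and 3411, 3749 and 4603 in BAT-Mcu-KO 4°C mice. Again no mouse at 4°C reached the lowest at RT of its genotype. The fall was 1.57-fold in the means of control and 1.62-fold in those of BAT-Mcu-KO mice (log2 fold change -0.64 ± 0.12 and -0.69 ± 0.12, adjusted p = 0.000128 and 3.59e-05).

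Of the 3 other regulatory subunits, 2 moved the other way and rose in both genotypes, beside 17.3% of all genes. Prkar1a, the RI-alpha subunit, rose from 3316 ± 325 to 6001 ± 678 normalized counts in control mice (n = 6 and 5) and from 3282 ± 248 to 6138 ± 463 in the BAT-Mcu-KO mice (n = 6 and 6), with log2 fold changes of 0.85 ± 0.085 and 0.90 ± 0.081 (adjusted p = 1.07e-08 and 1.92e-09, limma). Prkar2a rose by 0.60 and 0.50, and Prkar1b was not called (-0.22 and 0.17). Per kb of exon, the ratio of Prkar2b to Prkar1a was 1.73 to 3.25 in control RT and 0.654 to 1.11 in control 4°C mice. The BAT-Mcu-KO mice had a ratio of 1.68 to 3.36 at RT and 0.665 to 0.951 at 4°C. Prkar2b thus made up 69.2% ± 4.86 of the summed regulatory transcripts in control RT and 44.8% ± 5.60 in control 4°C mice, and 68.1% ± 5.02 and 42.1% ± 3.29 in the BAT-Mcu-KO mice. The sum of the 4 regulatory genes was 2658 ± 297 per kb in control RT and 2627 ± 132 in control 4°C mice, and 2542 ± 250.0 and 2550.3 ± 170.1 in the BAT-Mcu-KO mice. The ranges of the ratio did not overlap between RT and 4°C, while those of the sum did. Pkig, a peptide inhibitor of the catalytic subunit, rose as well (log2 fold change 1.76 and 1.83). In tissue RNA, a change in the RNA of each cell and a change in the number of cells of a type cannot be told apart.

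The start regions of the PKA genes are shown here because these genes fell together, and that of Adrb1, which was not called, for comparison. RefSeq (GRCm38.p6) gives a window of 250 bases before to 50 after the start site for 6 of the 8 genes. Adrb3 and Pde3b have no entry. Capitals mark the half-site of the cAMP response element, TGACG, on either strand (CGTCA is its complement), the motif bound by CREB and its relatives.
Prkaca, chr8:83972728-83973027, plus strand: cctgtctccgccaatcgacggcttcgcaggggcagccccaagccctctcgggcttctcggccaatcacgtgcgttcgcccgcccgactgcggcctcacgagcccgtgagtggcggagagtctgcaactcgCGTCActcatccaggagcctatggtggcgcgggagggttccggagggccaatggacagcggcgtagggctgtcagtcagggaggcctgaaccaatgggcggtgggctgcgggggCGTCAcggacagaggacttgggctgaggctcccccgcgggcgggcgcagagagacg
Prkar2b, chr12:32061228-32061527, minus strand: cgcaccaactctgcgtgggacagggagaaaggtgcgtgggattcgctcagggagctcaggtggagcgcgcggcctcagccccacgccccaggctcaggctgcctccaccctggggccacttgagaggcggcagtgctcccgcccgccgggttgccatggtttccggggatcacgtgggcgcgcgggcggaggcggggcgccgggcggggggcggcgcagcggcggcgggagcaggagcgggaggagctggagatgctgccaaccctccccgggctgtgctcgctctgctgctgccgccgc
Adrb1, chr19:56721867-56722166, plus strand: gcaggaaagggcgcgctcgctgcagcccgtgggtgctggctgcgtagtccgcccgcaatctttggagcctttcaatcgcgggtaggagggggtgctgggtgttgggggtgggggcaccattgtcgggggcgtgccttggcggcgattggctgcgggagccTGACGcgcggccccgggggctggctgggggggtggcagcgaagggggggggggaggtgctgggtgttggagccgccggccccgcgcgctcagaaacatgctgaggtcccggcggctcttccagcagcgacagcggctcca
RefSeq has 2 windows each for Prkaca and Prkar2b, of which the first is printed, and the second of either gene holds none of the 4 motifs searched. The Prkaca window printed holds 2 half-sites, which begin 120 and 6 bases before the start site, and 4 copies of CCAAT counted on both strands. The printed Prkar2b window has none of the half-sites and 1 copy of CACGTG, the E-box, which Prkaca also has once. The Adrb1 window holds 1 half-site, 90 bases before the start. Over all 32851 windows, 20.8% hold the half-site, 37.4% CCAAT and 7.15% CACGTG on either strand. The full palindrome TGACGTCA, which includes the half-site, is in 1.79% of all windows and in 0 of the 14 windows of the 6 genes. A match is a description of the letters, and the start site used in BAT was not measured.

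Pde3b, the phosphodiesterase through which insulin lowers cAMP in adipocytes, rose with cold (chr7:114415281-114539251, plus strand). It had 2802, 4125 and 4368 normalized counts in control RT mice and 6477, 5705, 6087, 5817 and 4480.0 in control 4°C mice. In BAT-Mcu-KO mice it had 3255, 3996 and 4205 at RT and 5014, 6417 and 7273 at 4°C. No mouse at 4°C was as low as any at RT of its genotype, by a narrow margin in control mice, where the lowest at 4°C was 4480.0 and the highest at RT 4368. The ratio of the means was 1.46 in control and 1.64 in the BAT-Mcu-KO mice (log2 fold change 0.55 ± 0.11 and 0.71 ± 0.11, adjusted p = 0.000313 and 8.6e-06).

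Pde4d belongs to the cAMP-specific PDE4 family and had the largest change of the 8 genes (chr13:108449948-109953461, plus strand). Its lowest, median and highest values were 948, 1237 and 1651 in control RT and 997, 1425 and 1759 in BAT-Mcu-KO RT mice. The control 4°C mice had 6072, 3566, 4373, 4712 and 4049, and the BAT-Mcu-KO 4°C mice 3479.8, 4386 and 5788. The lowest mouse at 4°C thus had more than the highest at RT by a wide gap in either genotype. The means rose 3.60-fold in control mice (log2 fold change 1.85 ± 0.17, adjusted p = 1.79e-09) and 3.34-fold in the BAT-Mcu-KO mice (1.73 ± 0.16, adjusted p = 2.49e-09). By p-value it stood at rank 245 and 259 of 14651 genes, and its absolute log2 fold change exceeded that of 95.5% and 95.4% of them.

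Pde4b, another gene of the PDE4 family, rose from a low level (chr4:102087543-102607259, plus strand). It was 48.1, 75.6 and 93.4 in control RT mice and 164, 185, 177, 234 and 221 in control 4°C mice, from 51 to 123 and from 81 to 319 reads. BAT-Mcu-KO mice had 56.4, 81.3 and 111 at RT and 159, 243 and 350.3 at 4°C. The groups at RT and 4°C were apart in both genotypes, and the BAT-Mcu-KO 4°C group spread most, with a coefficient of variation of 30.1%. Means rose 2.69-fold and 2.94-fold (log2 fold change 1.44 ± 0.20 and 1.53 ± 0.19, adjusted p = 2.28e-06 and 4.86e-07).

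The start regions of the PDE4 genes, whose RNA rose most, are given with the half-site in capitals as above. Pde4b has 4 windows in RefSeq, of which 1 holds the half-site and is printed, and Pde4d has 1.
Pde4b, chr4:102421305-102421604, plus strand: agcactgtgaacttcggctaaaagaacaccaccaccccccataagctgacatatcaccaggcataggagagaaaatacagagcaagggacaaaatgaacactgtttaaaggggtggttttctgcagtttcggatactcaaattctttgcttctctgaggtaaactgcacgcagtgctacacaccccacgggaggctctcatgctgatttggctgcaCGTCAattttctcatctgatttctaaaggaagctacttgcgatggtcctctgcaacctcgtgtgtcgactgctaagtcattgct
Pde4d, chr13:108653927-108654226, plus strand: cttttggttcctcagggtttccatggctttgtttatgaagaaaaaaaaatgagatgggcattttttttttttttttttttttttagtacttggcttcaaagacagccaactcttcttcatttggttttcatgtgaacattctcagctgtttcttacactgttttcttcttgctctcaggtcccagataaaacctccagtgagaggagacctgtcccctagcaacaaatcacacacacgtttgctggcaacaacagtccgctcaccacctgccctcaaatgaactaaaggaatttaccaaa
In the Pde4b window the half-site begins 34 bases before the start. The Pde4d window holds none of the 4 motifs searched. These windows are poorer in G and C, at 47.0% and 39.7%, than those printed for Prkaca, Prkar2b and Adrb1, at 69.7%, 75% and 72.3%. Both genes are known to have several start sites across long loci, and the counts pool all of them.

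The other 13 phosphodiesterases of the list were all in the table. In both genotypes 5 of them rose and 1 fell, beside 17.3% and 17.5% of all genes, and 7 were called in neither. Pde7b, a cAMP-specific enzyme, rose from 377 ± 75.3 to 1569 ± 305 in control mice (n = 6 and 5) and from 427 ± 78.3 to 1852 ± 324 in the BAT-Mcu-KO mice (n = 6 and 6), with log2 fold changes of 2.06 and 2.12 (adjusted p = 4.56e-11 and 1.32e-11, limma). Pde4c rose by 1.61 and 2.03. Pde1c, a calcium-dependent enzyme, rose by 2.44 and 2.51 from a mean of 4.72 and 3.15 at RT. The 2 others that rose were Pde10a (0.81 and 1.08) and Pde3a (0.54 and 0.58), and the gene that fell was Pde8a (-0.68 and -0.76). Pde4a, the remaining PDE4 gene, was not called (-0.26 and -0.093).

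Summed per kb over the 16 phosphodiesterases, transcripts came to 961 to 1192 in control RT and 1426 to 1939 in control 4°C mice, and to 998 to 1198 and 1482 to 2092 in the BAT-Mcu-KO mice. The sums did not overlap between RT and 4°C. Pde4d made up 9.83% ± 1.60 of the sum in control RT and 22.7% ± 2.70 in control 4°C mice, and 10.4% ± 1.56 and 21.1% ± 2.01 in the BAT-Mcu-KO mice. The share of Pde3b overlapped between RT and 4°C, at 40.1% ± 4.52 and 37.7% ± 2.17 in control and 38.5% ± 3.73 and 38.6% ± 2.10 in the BAT-Mcu-KO mice. Pde4b made up at most 1.59% in any mouse.

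**Figure D2:**
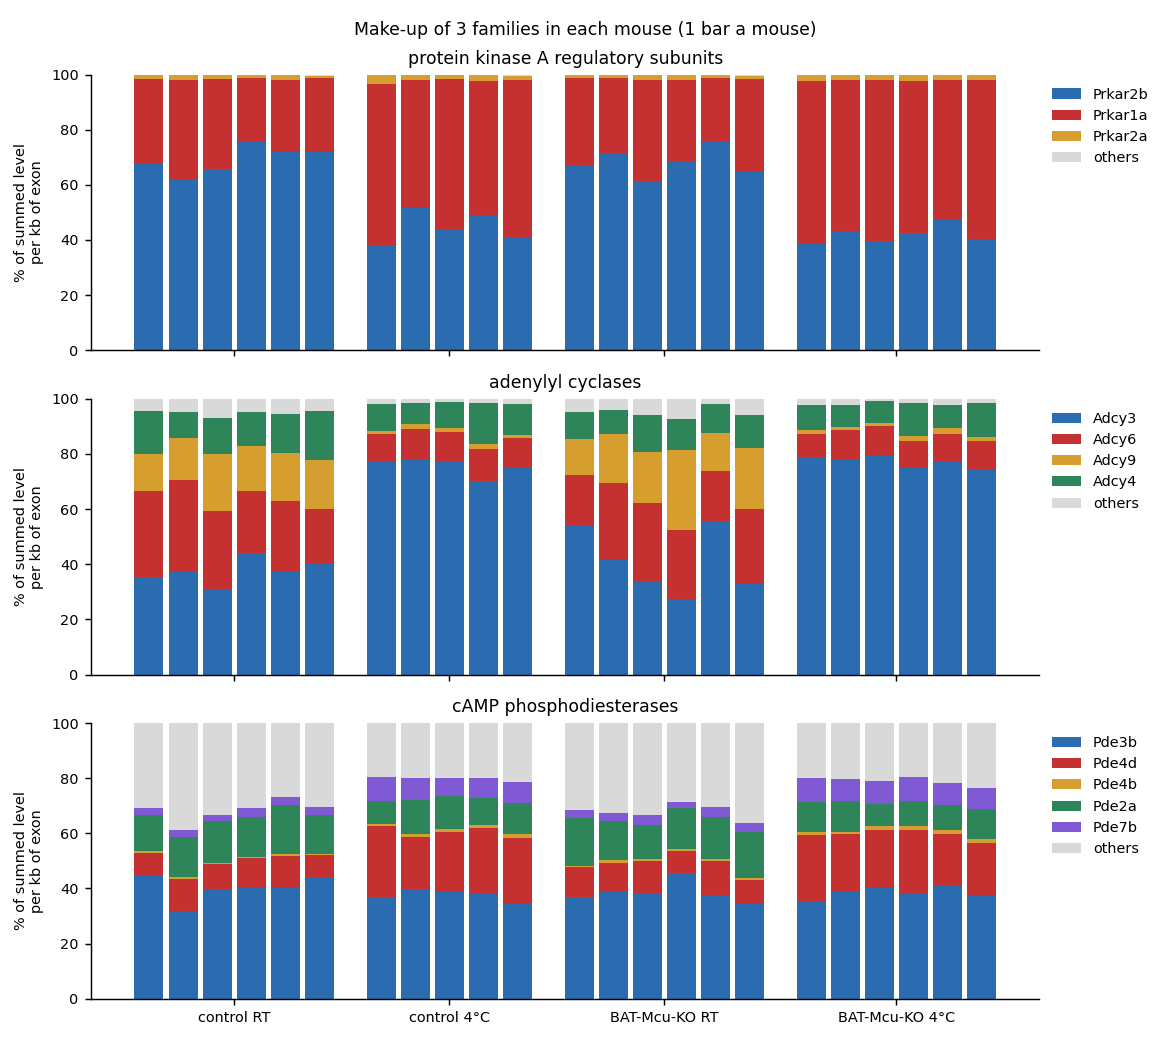
Share (vertical axes, percent of the summed level per kb of exon) of single genes in the PKA regulatory subunits, adenylyl cyclases and cAMP phosphodiesterases, with 1 bar for each mouse. At 4°C the shares of Prkar1a, Adcy3 and Pde4d are larger and those of Prkar2b and Adcy9 smaller in each mouse than at RT.

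Of the 8 adenylyl cyclases in the table, 2 rose and 1 fell in both genotypes, beside 17.3% and 17.5% of all genes. Adcy3, an adenylyl cyclase abundant in adipose tissue, rose from 832 ± 125 to 4845 ± 767 in control mice (n = 6 and 5) and from 960.3 ± 473 to 4826 ± 303 in the BAT-Mcu-KO mice (n = 6 and 6), or 5.82-fold and 5.03-fold (adjusted p = 9.01e-10 and 6.39e-10, limma). Adcy9 fell 4.30-fold in control and 4.17-fold in the BAT-Mcu-KO mice (adjusted p = 4.63e-10 and 2.33e-10). Adcy4 rose (log2 fold change 1.14 and 1.31), and Adcy5 fell in control mice (-0.89, and -0.36 in the BAT-Mcu-KO mice, where it was not called). The other 4 of the 8 cyclases were called in neither genotype, as were 6660 of all 14651 genes. Of the summed cyclase transcripts per kb, Adcy3 took 37.5% ± 4.44 in control RT and 75.6% ± 3.10 in control 4°C mice, and Adcy9 16.9% ± 2.45 and 1.38% ± 0.288. Endothelial markers moved with cold as well: their summed level was 2437 to 3699 in control RT and 4601 to 7352 in control 4°C mice, and 2716 to 3661 and 4255 to 6161 in the BAT-Mcu-KO mice, with all 4 of 4 markers present. The summed brown adipocyte markers, which include Ucp1, were 178521 to 248604 and 258845 to 314425 in control and 177168 to 199085 and 269846 to 303731 in the BAT-Mcu-KO mice. The part of these cell types in the changes of the 8 genes was not tested.

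By level per kb, Prkar2b was the highest of the 7 genes other than Gnas in all groups. In control RT mice the means were 1848 for Prkar2b, 460.2 for Prkaca, 429 for Pde3b, 312 for Adrb3, 105 for Pde4d, 13.6 for Adrb1 and 6.90 for Pde4b. Prkaca (356 to 602) overlapped with Pde3b (307 to 479), Pde3b with Adrb3 (216 to 410.4), and Adrb1 (8.57 to 16.2) with Pde4b (4.56 to 8.85), while Prkar2b and Pde4d overlapped with neither neighbour. Prkar2b lay above 98.4% of the 13761 genes with an exon length, Adrb3 above 91.9% and Pde4b above 21.1%. Adrb3 shares 24.9% of its exonic bases with an antisense gene, and the part of this in its rank was not tested. In control 4°C mice the order of the middle genes was Pde3b (627), Adrb3 (413), Pde4d (379) and Prkaca (285), and each of these overlapped with the next. Pde4b (18.6) stood above Adrb1 (12.9) there, and these overlapped too. The order in the BAT-Mcu-KO mice was the same at RT, with Prkaca at 501, Pde3b at 421, Adrb3 at 281 and Pde4d at 114, and at 4°C Pde4d (381) and Adrb3 (352) changed places within their spread. Pde4d had moved from 79.6% to 92.7% on the scale of all genes, and Prkaca from 94.3% to 90.6%.

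No change in these genes was called by genotype. Every BAT-Mcu-KO mouse and no control mouse carried Ucp1-Cre, so loss of Mcu and the transgene cannot be told apart. At RT 0 of 8 were called between BAT-Mcu-KO and control mice, where 7 of 14651 genes (0.0478%) were, 0.0205% of all genes being higher and 0.0273% lower in BAT-Mcu-KO. At 4°C 0 of 8 were called against 11 genes (0.0751%), with 0.0410% higher and 0.0341% lower. The genotypes overlapped for each of the 8 genes at both temperatures, and did not for 0.218% of all genes at RT and 0.683% at 4°C. The tool was limma, and with an unadjusted p under 0.05 the numbers were 0 and 1. DESeq2 and edgeR on the recovered reads called 0 as well. The 1 gene was Adrb1 at 4°C, with 29.4 ± 9.70 in BAT-Mcu-KO and 43.8 ± 9.02 in control mice (n = 6 and 5, log2 fold change -0.59 ± 0.26, adjusted p = 0.677, limma), and the 2 groups overlapped. Adrb3 differed between the genotypes by a log2 fold change of -0.15 ± 0.24 at RT and -0.32 ± 0.25 at 4°C (adjusted p = 0.997 and 0.836). At RT, leaving out the muscle-rich libraries moved Pde4d from 0.12 to 0.34 and Pde4b from 0.17 to 0.37 (adjusted p = 0.982 for both).

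Intervals tell how large a difference between genotypes could have gone unseen. At 4°C the 95% interval of the fold (BAT-Mcu-KO over control) was 0.789 to 1.27 for Pde4d, 0.937 to 1.30 for Pde3b, 0.767 to 1.09 for Prkar2b and 0.756 to 1.16 for Prkaca. It was wider for Pde4b (0.90 to 1.60), Adrb3 (0.561 to 1.15), Gnas (0.577 to 1.42) and Adrb1 (0.456 to 0.962). The part of the overlap with Gm20721 in the interval of Gnas was not tested. At RT the interval was 0.866 to 1.36 for Pde4d, 0.845 to 1.15 for Pde3b, 0.797 to 1.12 for Prkar2b, 0.892 to 1.34 for Prkaca and 0.642 to 1.27 for Adrb3. Intervals at RT are not given for Gnas, Adrb1 and Pde4b, whose log2 fold changes were -0.32, -0.29 and 0.17.

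The response to cold was compared between the genotypes by the interaction. None of the 8 genes was called (limma, 0 of 14651 genes called, or 0.00%, and 878 at an unadjusted p under 0.05, none of them among the 8), and DESeq2 and edgeR called 0 of the 8. The smallest adjusted p among them was 0.898, that of Prkaca, whose log2 fold change by cold differed by -0.22 ± 0.21. For Pde4d the difference was -0.12 ± 0.23, for Pde3b 0.16 ± 0.16, for Pde4b 0.089 ± 0.28 and for Prkar2b -0.043 ± 0.17. Without the muscle-rich libraries it was -0.50 ± 0.25 for Pde4d, and with 1 mouse left out -0.20 to -0.0086. Adrb1 had -0.31 ± 0.36 with all mice and -0.82 ± 0.39 without these libraries (adjusted p = 0.906 for both genes). In folds, with all mice, the 95% intervals of the difference in response were 0.638 to 1.15 for Prkaca, 0.663 to 1.28 for Pde4d and 0.761 to 1.24 for Prkar2b.

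**Figure D3:**
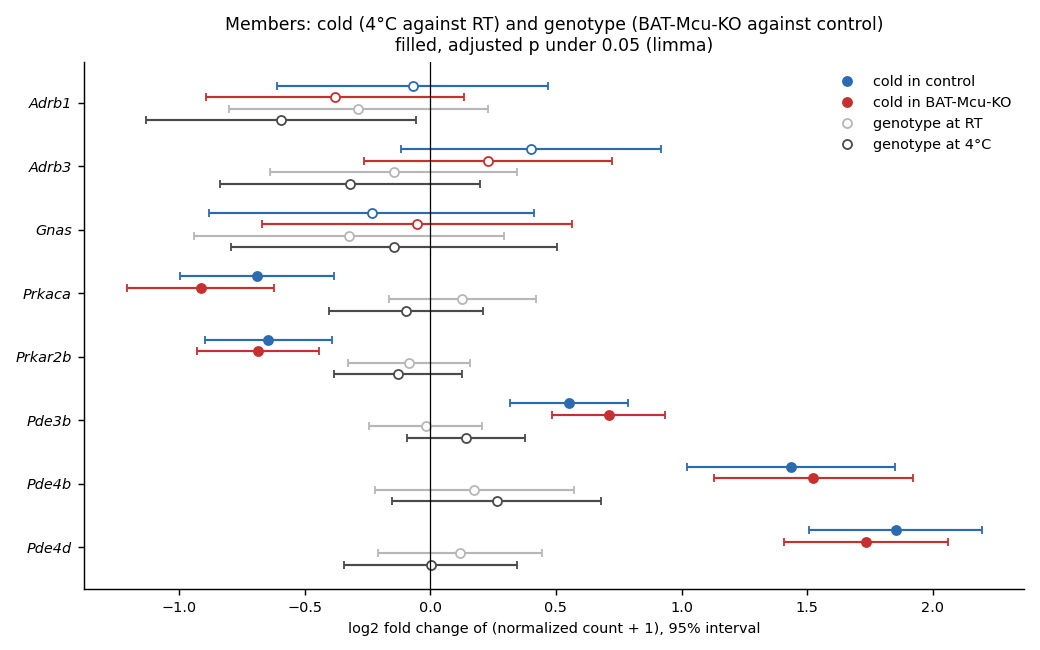
Log2 fold change (horizontal axis) with its 95% interval for the 8 genes by cold in each genotype and by genotype at each temperature, with filled points where the adjusted p was under 0.05. The filled points are those of Prkaca, Prkar2b, Pde3b, Pde4b and Pde4d by cold, and the intervals by genotype include 0 except that of Adrb1 at 4°C, which was not called.

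The wider pathway list held 111 genes, apart from the 8 genes, and 97 of them were in the table. By cold 36 rose and 24 fell in control mice, and 35 rose and 23 fell in the BAT-Mcu-KO mice, or 61.9% and 59.8% called. Without the 5 muscle-rich libraries 55 of the 97 were called in control and 49 in the BAT-Mcu-KO mice, beside 38.5% and 32.1% of all genes. The genes whose call by cold changed are not named. In both genotypes 34 rose and 18 fell, that is, 35.1% and 18.6%, beside 17.3% and 17.5% of all genes. The list was chosen with earlier results known and includes 9 transcripts known to rise with cAMP, of which 8 rose in both. Of all genes 46.0% and 43.3% were called by cold, and of those with a mean of at least 50, 56.9% and 53.2%. The list was not compared with genes of a like level. By genotype and by the interaction 0 of the 97 were called. DESeq2 called Pck1 by genotype at 4°C (log2 fold change 0.35, adjusted p = 0.026), and without the 5 libraries rich in muscle transcripts limma called Adcy3 by genotype at RT (log2 fold change 0.70, adjusted p = 0.0484).

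Among the 11 receptors other than adrenergic ones, 3 rose and 4 fell in both genotypes, beside 17.3% and 17.5% of all genes. In control mice alone 2 more were called, both lower, beside 1642 of all 14651 genes called in control mice alone. These were Mc2r and Sctr, whose products raise cAMP (log2 fold change -1.11 and -0.89, and -0.37 and -0.46 in the BAT-Mcu-KO mice, adjusted p of the interaction 0.873 and 0.886, limma). Npy1r, which lowers cAMP, and Tshr, which raises it, were called in neither. Hcar1, the lactate receptor, went from 519 ± 124 to 19.8 ± 6.90 in control mice (log2 fold change -4.68) and from 386 ± 111 to 17.7 ± 7.49 in the BAT-Mcu-KO mice (-4.42). Hcar2, the receptor of beta-hydroxybutyrate and niacin, changed by -3.57 and -3.30, and Adora1, the inhibitory adenosine receptor, by -2.41 and -2.66. Ptger3, also inhibitory, fell by 1.68 and 1.60 on the log2 scale. The 3 that rose were Gpr3, Adora2a and Ptger4, with log2 fold changes of 3.53 and 2.30, 1.48 and 1.70, and 0.55 and 0.61. Gpr3 had few reads, at 0 to 1 a mouse in control RT and 0 to 3 in BAT-Mcu-KO RT. At 4°C it had 2 to 23 reads in control and 2 to 12 in the BAT-Mcu-KO mice. White adipocyte markers (2 of 2 present) summed to 566 to 1065 in control RT and 267 to 471 in control 4°C mice, and to 504 to 1673 and 369 to 663 in the BAT-Mcu-KO mice, and their part was not tested.

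Downstream, 5 of 11 genes of CREB and its regulators rose in both genotypes and none fell, beside 17.3% and 17.5% of all genes. Crem, which gives both activators and the inducible repressor, rose by 1.65 and 1.79, and the kinases Sik1 (2.02 and 1.95) and Sik3 (1.24 and 1.00), which hold back the CREB coactivators, rose too, as did Atf1 (1.01 and 0.57) and the coactivator Crebbp (0.62 and 0.57). Of 9 transcripts known to rise with cAMP, 8 rose and Pck1, the gluconeogenic enzyme, fell (-0.70 and -0.40). Ppargc1a, the coactivator of mitochondrial genes, rose by 5.10 and 4.33, Dio2, which activates thyroid hormone, by 5.19 and 4.96, and Ucp1, the uncoupling protein, by 1.37 and 1.47.

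The remaining classes were mixed, where 17.3% of all genes rose and 17.5% fell in both genotypes. Both exchange proteins activated by cAMP rose, Rapgef3 by 0.92 and 0.96 and Rapgef4 by 1.08 and 0.88. Of 11 anchoring proteins, which hold PKA at its targets, 4 rose and 2 fell in both genotypes, Akap12 being the one with the largest change (2.54 and 2.27). Of 7 genes of receptor desensitization, 2 fell in both, the arrestin Arrb1 (-1.06 and -0.96) and the receptor kinase Grk6 (-0.86 and -0.73), and none rose. Of 5 genes of catecholamine handling, 2 fell in both, Slc22a3, a transporter that takes up catecholamines, by 2.56 and 2.12 on the log2 scale, and Maob, which oxidizes amines, by 0.47 and 0.51.

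**Figure D4:**
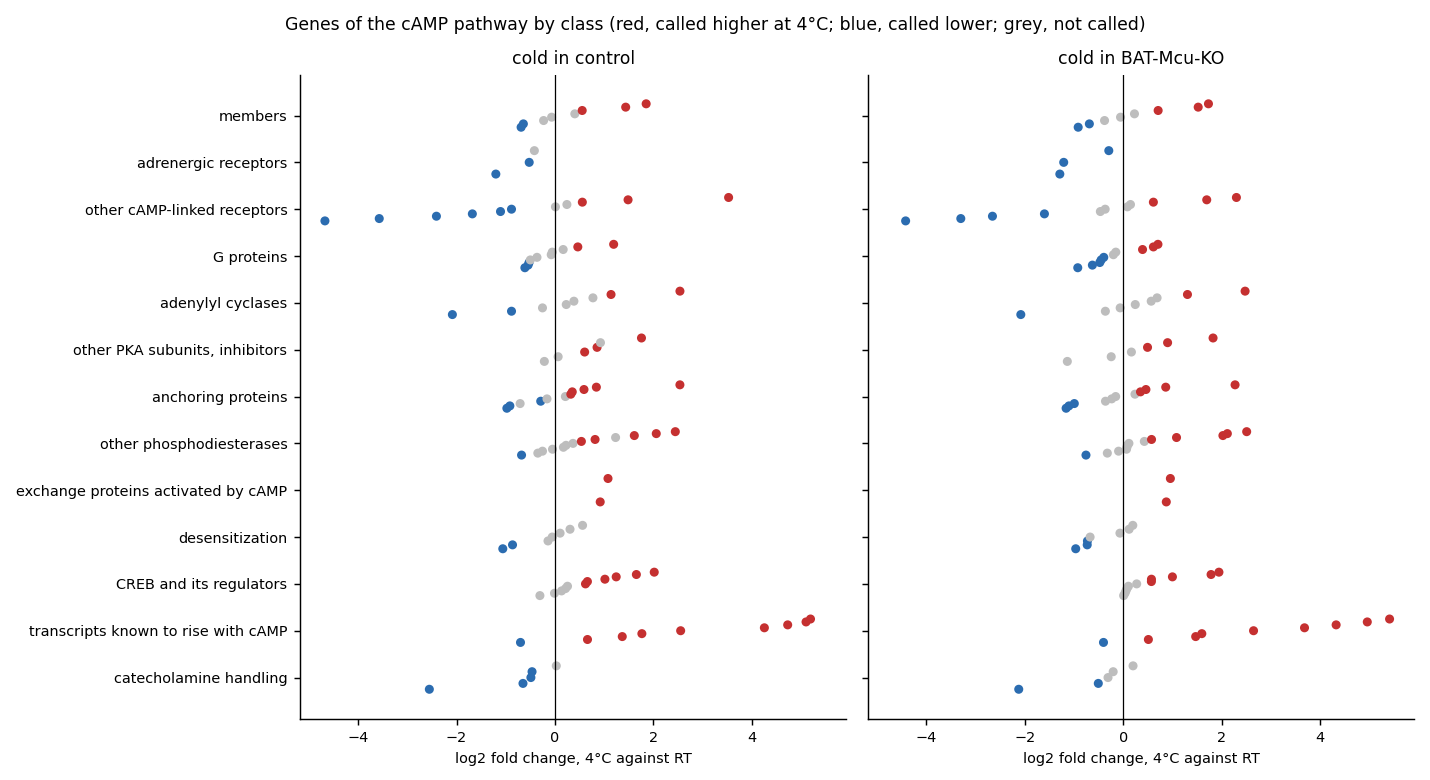
Log2 fold change by cold (horizontal axes) of the 8 genes (first line, members) and of genes of the pathway list in control mice (left) and BAT-Mcu-KO mice (right), by class, in red where called higher at 4°C, in blue where called lower and in grey where not called. The 4 points farthest to the right belong to transcripts known to rise with cAMP, whose other members lie among those of other classes, and the receptors Hcar1 and Hcar2 lie farthest to the left in both panels.

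Genes with the most similar pattern were sought over the 23 mice, by the smallest root-mean-square difference of log2 values after each gene was centred on its own mean. Pde4d was closest to Ccnl1 (0.213) and Bag3 (0.230), where its own values varied by 0.938 around their mean. Pde4b was closest to Gab2 (0.303) and Spred2 (0.322), with 0.819 of its own, and Pde3b to Prpf6 (0.169) and Rbm7 (0.172), with 0.369. Prkar2b was closest to Aldh4a1 (0.175) and Xrcc6 (0.186), beside 0.392, and Prkaca to Ralgapa2 (0.212) and Ptms (0.225), beside 0.473. The closest genes followed the 3 uncalled members less well, at 0.324 of 0.468 for Adrb3 (Narf), 0.339 of 0.476 for Adrb1 (Nrp2) and 0.388 of 0.537 for Gnas (Crispld2). All mice enter each value, so that likeness rests largely on the difference between RT and 4°C where there is one.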

How the data were processed

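RNA of BAT from 23 mice was sequenced by the Smart-seq2 protocol as paired reads. The authors aligned reads with STAR 2.4.0j to mm10, counted them per gene with HTSeq (GENCODE M7) without regard to strand, kept 14651 genes and divided the counts by DESeq2 size factors. The deposited values are these normalized counts, a signal without a length correction. Whole reads could be recovered from their steps. A deposited table of fold changes and p-values of the authors' own comparisons was not used.

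Groups came from the labels. limma 3.58.1 (R 4.3.3, eBayes with a trend) was run on log2(normalized count + 1) with 4 group means over all 14651 genes, with Benjamini-Hochberg adjustment. The step was tested on simulated data. edgeR 4.0.16 and DESeq2 1.42.0 on the recovered reads, other scalings, pseudocounts, a filter, a replicate block and leaving out each mouse were alternatives. Exon lengths came from GENCODE M21, start regions from RefSeq GRCm38.p6.

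The members and lists were chosen with earlier results of these data known. Named were the members, adrenergic receptors (1 listed gene is not reported here), up to 3 genes of each other class called in both genotypes with an absolute log2 fold change of at least 1, any pathway gene called by genotype, and for each member the 2 genes most alike. Genes outside this rule, named where a count was 5 or fewer or as a partner of a member, were chosen after their values were seen.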

Additional observations from a re-analysis of the deposited data

Results flagged for a closer look

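In 64 groups of 5 or 6 mice (16 genes in 4 groups), 4 had a mouse that stood apart from the others of its group by Dixon's test at the 95% level, which chance gives in about 1 of 20 groups. Adcy9 was 50.6 in control 4°C replicate 1 and 74.4 to 83.7 in the others. Adra1d was 17.6 in control 4°C replicate 5 and 4.55 to 7.47 in the others, at few reads. Mcu was 15.2 in BAT-Mcu-KO RT replicate 4, one of the libraries rich in muscle transcripts, and 36.2 to 42.4 in the others. Mir1904, a miRNA gene inside Pde4d, was 39.9 in BAT-Mcu-KO 4°C replicate 3 and at most 27.6 in the others. None of the 8 genes of the report had such a mouse.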

How the results depend on the processing

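The 5 calls by cold in each genotype held in every alternative run, with the same direction, and no member was called by genotype or by the interaction in any. Deviations of same-numbered mice correlated at over 0.1 in 4 of 33 pairs, from -0.386 to 0.264. Between control 4°C and BAT-Mcu-KO 4°C all 5 correlations were positive, at 0.042 to 0.218, and 2 were over 0.1. Such a limit cannot decide whether mice were paired by number, and a replicate block was run. With a replicate block 5 members were called by cold in each genotype and 0 by genotype, and 7 of all genes by genotype at 4°C. Fits chosen after seeing the data left out the 5 libraries rich in muscle transcripts or both 4°C mice numbered 1. Of all genes, genotype at RT gave 3 calls with only the groups compared and 20 with DESeq2. Genotype at 4°C gave 7 without the trend, 2 with only the groups compared, 23 with DESeq2, 6 with edgeR, 2 without the muscle-rich libraries and 3 to 16 with 1 mouse left out, namely 3 without control 4°C replicate 2, 7 without control 4°C replicate 5 and 6 without BAT-Mcu-KO 4°C replicate 4. The interaction gave 28 with DESeq2, 1 without both mice numbered 1, and 0 to 1 with 1 mouse left out (control 4°C replicate 1). With a mean of at least 50 required, Adrb1 had no value. In the pathway list, 1 gene was called by genotype at RT without the muscle-rich libraries (Adcy3) and 1 at 4°C with DESeq2 (Pck1).

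None of the values that changed sign was called, and the cause was not tested. By cold in control mice, Adrb1 was 0.034 with quantile normalization and 0.026 without the muscle-rich libraries, and -0.20 to 0.0039 with 1 mouse left out. Gnas was 0.050 without both mice numbered 1 and -0.36 to 0.050 with 1 left out. By cold in BAT-Mcu-KO mice, Gnas was 0.072 with quantile normalization and -0.31 to 0.16 with 1 left out. By genotype at RT without the muscle-rich libraries, Adrb1 was 0.13, Gnas 0.040, Prkar2b 0.079 and Pde3b 0.059, and Pde3b was -0.11 to 0.029 with 1 left out. By genotype at 4°C, Gnas was 0.0050 without the muscle-rich libraries, and Pde4d -0.035 with quantile normalization, -0.034 with the genes inside it added, -0.16 without the muscle-rich libraries and -0.081 to 0.11 with 1 left out. The interaction of Gnas was -0.028 with DESeq2, -0.036 with edgeR, -0.035 without the muscle-rich libraries, -0.095 without both mice numbered 1 and -0.10 to 0.39 with 1 left out. That of Prkar2b was 0.015 with 75th percentile scaling and -0.12 to 0.034 with 1 left out, that of Pde3b -0.028 without the muscle-rich libraries, that of Pde4b -0.065 without them, -0.017 without both mice numbered 1 and -0.027 to 0.20 with 1 left out, and that of Adrb3 -0.31 to 0.067 with 1 left out. Adrb1, Gnas and Pde4b had the fewest reads of the members. Cold, housing and food cannot be told apart, and RNA does not show protein, kinase activity or cAMP.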

Other observations

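Mir1904 lies inside Pde4d on the same strand and shares 0 exonic bases with it. The part of its reads that comes from RNA of Pde4d was not tested. Mir1904 has a row of its own, with 4 to 50 reads a mouse. It was 23.2 ± 10.1 (SD, n = 6) in control RT and 7.81 ± 3.75 (n = 6) in BAT-Mcu-KO RT mice, a log2 fold change of -1.45 (adjusted p = 0.0268, limma), and the groups overlapped. At 4°C it was 29.8 ± 2.99 (n = 5) and 28.5 ± 5.74 (n = 6), and was not called (adjusted p = 0.982, limma). The interaction was not called either (adjusted p = 0.7, limma). Pde4d itself had a log2 fold change by genotype of 0.12 at RT (adjusted p = 0.997, limma).

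Adcy3 in BAT-Mcu-KO RT mice was 639.7, 461 and 586 in the 3 libraries rich in muscle transcripts (replicates 3, 4 and 6) and 1465, 1045 and 1564 in replicates 1, 2 and 5. The part of muscle RNA in this difference was not tested.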
